A study of Mus musculus with 4 samples.

Results

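The 9 complement genes described here are C1qa, C1qb, C1qc, C3, C4b, Cfb, Cfp, C3ar1 and C5ar1. They were taken by symbol from the 27998 genes of the count tables, with no measured value used in the choice, and all 9 were found. They were followed through 4 single-cell libraries of nasal mucosal leukocytes, sorted for the surface protein CD45, of 8-week-old C57BL/6 mice. Mice had been given vehicle or ribavirin, each alone (Vehicle, Ribavirin) or in the rhinitis model (Vehicle-OVA, Ribavirin-OVA), with 1 library per treatment. OVA stands for ovalbumin, an allergen that was given with alum and then into the nose to set up allergic rhinitis, and ribavirin is an antiviral drug that the series describes as a nasal spray. The labels give no dose of ribavirin and no number of mice per library, they name magnetic sorting where the series text names flow sorting, and the study's text describes the control and OVA arms without the ribavirin arms.

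With 1 library per treatment there was no replicate, nothing was tested, and treatment and library cannot be told apart. Bracketed ranges are 95% intervals for the counting error alone. The libraries held 10311 to 28277 cells and 91742940 to 171873110 UMIs (unique molecular identifiers, which count single RNA molecules). After filtering 8454 to 22861 cells were kept, at median depths of 3322 to 4920 UMIs per cell. The shallowest deposited cell had 1782 UMIs in Ribavirin and about 500 UMIs in the other libraries. Pairs of libraries shared 57 to 174 cell barcodes. Ptprc, which encodes CD45, was read in 86.8% to 91.5% of the cells kept. Cells were grouped without any complement gene into 45 clusters, which were named from marker genes with the ending "-like", or left with their number.

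Complement is a cascade of plasma proteins that marks targets for uptake and releases small inflammatory peptides. C1q, built from the chains of C1qa, C1qb and C1qc, starts the classical pathway when it binds antibody or the surface of dying cells, and it is made by tissue macrophages more than by the liver. C4b encodes complement C4, C3 is the component on which all pathways meet, Cfb is the protease of the alternative pathway, and properdin (Cfp) stabilises that pathway's convertase. C3ar1 and C5ar1 are the receptors for the peptides C3a and C5a, which attract and activate myeloid cells and mast cells.

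On the mouse genome build GRCm38 the C1q genes lie side by side on the minus strand of chromosome 4, C1qb at chr4:136880129-136886187, C1qc at chr4:136889804-136893065 and C1qa at chr4:136895917-136898803, with 3617 and 2852 bases between neighbours. C4b (chr17:34728380-34743882) and Cfb (chr17:34856374-34862518) lie 112492 bases apart, and C3 lies further along the same chromosome (chr17:57203970-57228136). Cfp is at chrX:20925454-20931555, C3ar1 at chr6:122847138-122856161 and C5ar1 at chr7:16246743-16259540. Reads of C4b are uncertain because of its near-identical copy C4a, which is not analysed here, and reads of Cfb because the listed gene Gm20547 overlaps it on the same strand. To let neighbouring C1q chains and the receptors be compared, the 250 bases before the start given by RefSeq are shown for 4 genes. They come from RefSeq's table for GRCm38.p6, in which 6 of the 9 genes had an entry. Those starts differ from the gene positions given above. The windows of C1qc, C3ar1 and C5ar1 reach into the gene as placed above, and that of C1qb begins beyond its start. C1qb (chr4:136886201-136886450) and C1qc (chr4:136892915-136893164) are the chains whose levels moved apart below, and C3ar1 (chr6:122856158-122856407) and C5ar1 (chr7:16259339-16259588) are the receptors that were highest in different classes. All are on the minus strand and are written 5′ to 3′. Capitals mark matches to GGAAGT, the core letters of sites for the myeloid factor PU.1 (ACTTCC on the other strand), or to TGCTGA, a partial site of Maf factors (TCAGCA on the other strand). Neither motif overlaps the other in these windows.
C1qb: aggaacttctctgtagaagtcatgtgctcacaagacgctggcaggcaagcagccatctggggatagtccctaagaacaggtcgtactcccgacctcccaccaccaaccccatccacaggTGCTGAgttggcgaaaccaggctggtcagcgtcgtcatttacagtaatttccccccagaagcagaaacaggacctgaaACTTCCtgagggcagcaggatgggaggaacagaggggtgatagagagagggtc
C1qc: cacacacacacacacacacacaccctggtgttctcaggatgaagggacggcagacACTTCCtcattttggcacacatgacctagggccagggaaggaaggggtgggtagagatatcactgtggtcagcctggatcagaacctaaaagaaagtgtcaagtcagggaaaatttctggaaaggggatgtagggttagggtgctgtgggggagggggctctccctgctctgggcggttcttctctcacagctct
C3ar1: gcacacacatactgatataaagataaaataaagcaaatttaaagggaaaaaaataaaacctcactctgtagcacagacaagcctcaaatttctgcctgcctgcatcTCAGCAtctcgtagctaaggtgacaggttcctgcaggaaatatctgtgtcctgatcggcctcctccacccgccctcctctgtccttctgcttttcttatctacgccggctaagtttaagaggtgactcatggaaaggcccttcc
C5ar1: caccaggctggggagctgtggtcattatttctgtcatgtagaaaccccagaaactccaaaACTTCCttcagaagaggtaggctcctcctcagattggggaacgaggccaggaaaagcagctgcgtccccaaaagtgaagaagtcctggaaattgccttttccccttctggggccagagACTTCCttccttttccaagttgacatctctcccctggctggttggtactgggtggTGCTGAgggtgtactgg

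C1qb held 1 match to each motif, C1qc 1 match to GGAAGT, C3ar1 1 match to TGCTGA, and C5ar1 2 matches to GGAAGT and 1 to TGCTGA. Of the other genes with an entry, C3 held 1 match to TGCTGA and Cfp held none. Over all 32851 promoter windows of the table, 19.7% held GGAAGT and 16.1% held TGCTGA, so such matches are common, and they are letters and not shown to be bound.

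The 9 genes fell into distinct patterns over the leukocytes. The C1q chains and C3ar1 were highest in macrophage-like cells or cluster 5, C5ar1 in neutrophil-like cells, Cfp in dendritic and several myeloid cells, Cfb in monocyte-like cells and cluster 5, C4b in a few macrophage-like and non-leukocyte clusters, and C3 in many myeloid cells at once. The map of levels by class and library shows these rows. Levels are given as CPM, the UMIs of a gene scaled to the same total of UMIs in each class and library, and are compared between cells and libraries, not between genes.

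**Figure D1:**
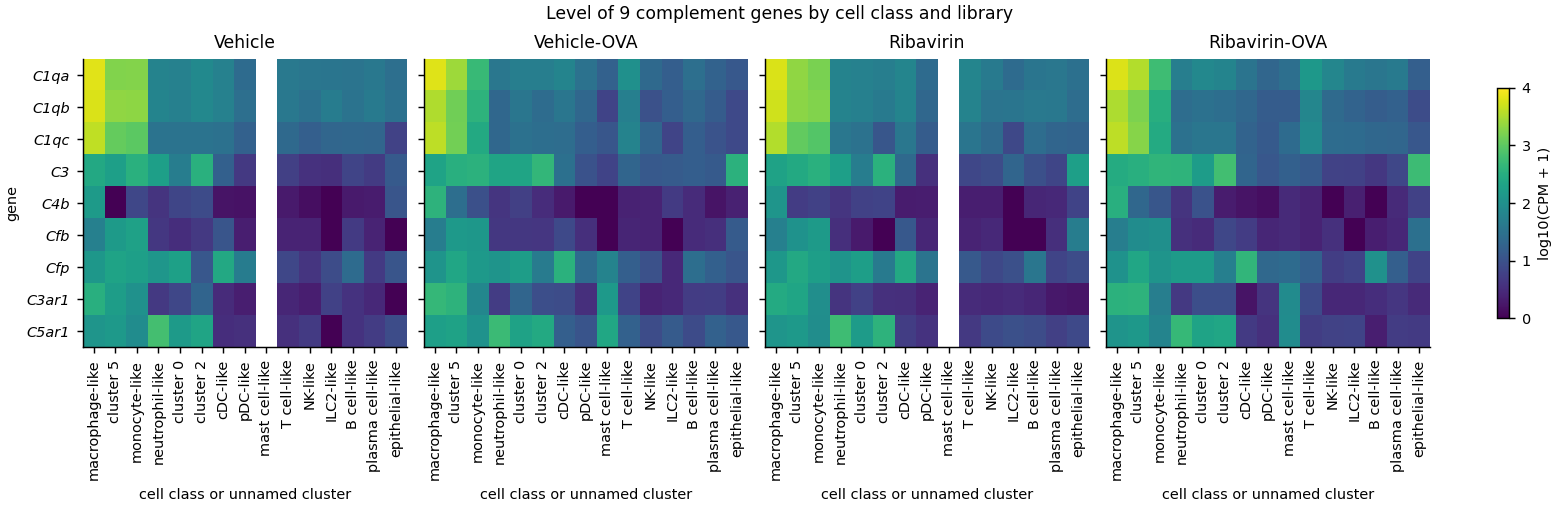
Level of each of the 9 genes, as log10(CPM + 1) by colour, in every cell class or unnamed cluster (columns) of each library (panels). The C1q rows are brightest in macrophage-like cells, cluster 5 and monocyte-like cells, and the C5ar1 row in neutrophil-like cells, where its level was 486 to 648 CPM.

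Macrophage-like cells carried the highest C1q level in every library. Their summed C1qa, C1qb and C1qc stood at 16707 CPM in Vehicle (16651 to 16762), 13825 CPM in Vehicle-OVA (13668 to 13984), 14516 CPM in Ribavirin (14459 to 14573) and 13381 CPM in Ribavirin-OVA (13238 to 13526). The class held 2231, 229, 1777 and 239 cells in that order, and all 9 macrophage markers were read in it in each library. The summed level of those markers was 51527, 33027, 48278 and 31208 CPM in the 4 libraries in that order, and that of the 8 neutrophil markers was 430, 1617, 667 and 419 CPM, and their part in the results below was not tested. At least 92.1% of the macrophage-like cells had a UMI of all 3 chains in every library. Cluster 5, led by the alternative activation genes Ccl24, Arg1 and Retnla, came next. It had 8 detected macrophage markers but stayed unnamed because Fn1, on the monocyte list, was among its leading genes and no macrophage marker was. It was largely a cluster of the OVA libraries, with 57 cells in Vehicle, 2108 in Vehicle-OVA, 86 in Ribavirin and 1516 in Ribavirin-OVA. Its summed C1q level was 5055 CPM, 5393 CPM, 5263 CPM and 6922 CPM in the same order.

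Monocyte-like cells followed with 4876 CPM in Vehicle, 1148 CPM in Vehicle-OVA, 4195 CPM in Ribavirin and 1160 in Ribavirin-OVA. All 9 macrophage markers were also read in monocyte-like cells, and their summed level moved with C1q there, at 11813, 4116, 11662 and 3145 CPM in that order, a part in the result that was not tested. The intervals of cluster 5 and monocyte-like cells overlapped in Vehicle alone, and those of macrophage-like cells overlapped with no other class in any library. Within the monocyte-like class, C1q was read in cluster 3 (Ly6i, Cxcl9) at 2393 to 5304 CPM and in cluster 18 (Ace, Vcan) at 44.1 to 125 CPM. T cell-like cells, which should lack C1q, had 101 to 283 CPM. After each cell was thinned to 1000 UMIs, a C1qa UMI was found in 93.1% to 98.9% of macrophage-like cells, 38.8% to 73.3% of cluster 5 cells and 14.3% to 42.8% of monocyte-like cells. The thinned share in T cell-like cells was 3.41% to 3.93%, the background for this readout. Without thinning the shares were 96.1% to 98.3% in macrophage-like cells, at median depths of 9269 to 9523 UMIs, and 12.9% to 17.0% in T cell-like cells, at 4029 to 5125 UMIs. Neutrophil-like cells, with 78.7 to 157 CPM and a thinned share of 3.82% to 5.81%, stood near that background, as did the level of cluster 18. The 8 to 171 cells per library of cluster 5 that were below 1000 UMIs, and up to 91 of macrophage-like cells, were left out of the thinned shares, with none to leave out in Ribavirin.

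C1q RNA was divided differently between macrophage-like cells and cluster 5 with and without OVA. Macrophage-like cells held 71.4% of all C1q UMIs in Vehicle and 71.0% in Ribavirin, but 19.5% in Vehicle-OVA and 22.4% in Ribavirin-OVA. Cluster 5 held 0.569% and 1.46% without OVA, and 73.6% and 70.6% with OVA. Monocyte-like cells held 25.9% and 24.0% without OVA, and 2.96% and 2.67% with it. The chart of shares shows the same exchange for C3ar1, of which cluster 5 held 83.1% and 81.3% of the UMIs in the OVA libraries, and macrophage-like cells 69.5% and 66.8% in the libraries without OVA. Macrophage-like cells themselves made up 9.76% and 9.57% of the cells without OVA and 1.41% and 2.83% with OVA. The exchange therefore depends on cluster 5 being kept apart from the macrophage-like class. Counted together, both held most C1q UMIs in every library and were a larger share of the cells with OVA than without it, with 2288 of 22861 cells in Vehicle, 2337 of 16223 in Vehicle-OVA, 1863 of 18572 in Ribavirin and 1755 of 8454 in Ribavirin-OVA.

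**Figure D2:**
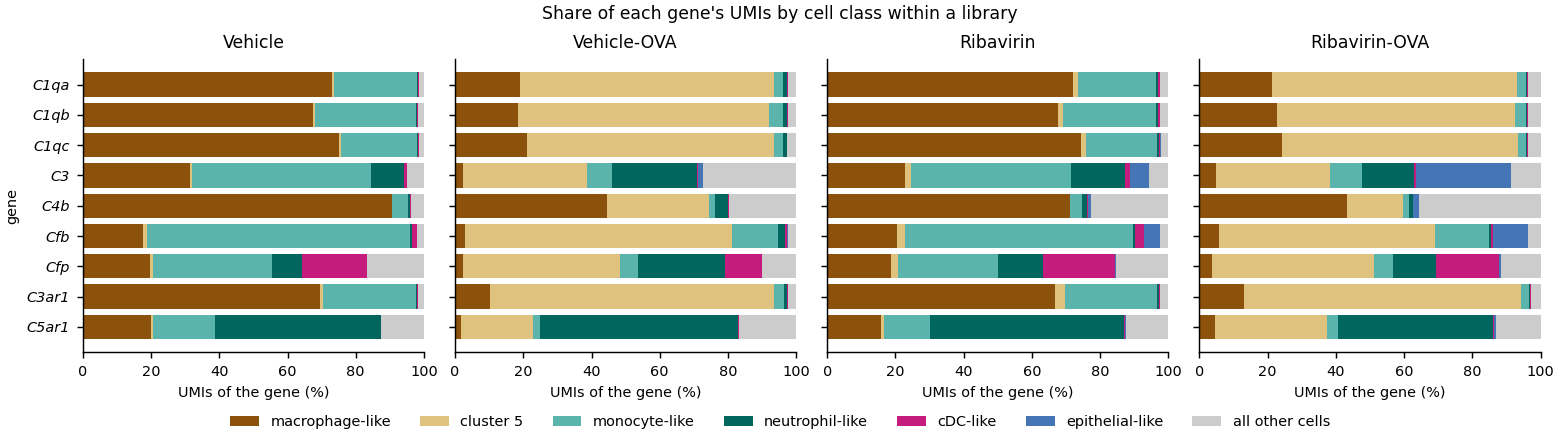
Share of each gene's UMIs (%, horizontal axis) that came from each cell class (colours) in the 4 libraries (panels). For the C1q chains and C3ar1 the largest share passes from macrophage-like cells in the libraries without OVA to cluster 5 in the libraries with OVA.

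Over all cells together the summed C1q level was 0.489-fold (0.486 to 0.492) in Vehicle-OVA over Vehicle and 0.752-fold (0.748 to 0.757) in Ribavirin-OVA over Ribavirin, sums in which fewer cells of a type and less RNA per cell cannot be told apart. Inside the macrophage-like class the summed level was 0.828-fold (0.818 to 0.837) and 0.922-fold (0.911 to 0.932). The median over all genes of the class shifted by 0.29 and 0.26 on the log2 scale in the same pairs, so that relative to it the sum fell by 0.56 and 0.37. The size depended on which cells were called macrophage-like. With cluster 5 added to the class the ratios were 0.377 and 0.559. Within cluster 6 alone (Fcrls, Ccl7, Apoe), which held most macrophage-like cells, they were 0.789 and 0.843, and within cluster 30 (Crybb1, Sall1, Sparc) they were 0.789 and 0.744. With a minimum of 2000 UMIs per cell the log2 ratio of the ribavirin pair turned to 0.25.

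Within the macrophage-like class as named, the lower level lay mainly in C1qb. C1qb in macrophage-like cells was 5879 CPM in Vehicle, 3378 CPM in Vehicle-OVA, 5134 CPM in Ribavirin and 3209 in Ribavirin-OVA. That gave 0.575-fold (0.561 to 0.588) and 0.625-fold (0.611 to 0.639) with OVA. C1qa was 6704, 6458, 5873 and 6205 CPM in the same order, or 0.963-fold and 1.06-fold. C1qc was 4124, 3989, 3509 and 3967 CPM, or 0.967-fold and 1.13-fold. C1qb was the one chain of this class for which both OVA libraries stood below both libraries without OVA. With cluster 5 added all chains were lower with OVA, C1qb at 0.271-fold and 0.370-fold, C1qa at 0.449-fold and 0.676-fold, and C1qc at 0.412-fold and 0.640-fold.

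The mix of the 3 chains showed the difference in class after class. Of the C1q UMIs of macrophage-like cells, C1qb made up 35.2% in Vehicle (35.0 to 35.3), 35.4% in Ribavirin (35.2 to 35.6), 24.4% in Vehicle-OVA (23.9 to 24.9) and 24.0% in Ribavirin-OVA (23.5 to 24.4). In cluster 5 its share was 43.0% and 37.9% without OVA against 25.6% and 23.3% with OVA. In monocyte-like cells it was 42.9% and 42.1% against 33.6% and 27.5%. The low C1q background of T cell-like cells had the same difference, 38.3% and 37.6% against 24.6% and 23.9%, and so had that of neutrophil-like cells, 40.1% and 38.5% against 26.0% and 24.4%. The lower C1qb was thus also seen in cells that should lack C1q. Whether their background came from the cells that carry C1q was not tested, nor whether reads of C1qb were counted alike in all libraries. The same limit holds for the summed C1q level. Within clusters 6 and 30 the shares without OVA were 34.3% to 35.3% and those with OVA 24.0% to 25.3%. Cluster 18, with 91 to 361 C1q UMIs per library, was an exception, at 37.4% and 46.3% without OVA and 38.5% and 28.4% with OVA. Over 15 settings the share in macrophage-like cells was 34.5% to 37.3% in the libraries without OVA. In those with OVA it was 21.6% to 25.6%, with no overlap. The settings were for filtering, clustering, naming or summing the cells, or for the ratios. Those for the ratios, 1 CPM added and values relative to the median gene, leave this share as it is by construction. These shares are not corrected for transcript length and are compared between libraries. The plot of the chain shares gives all 3 chains.

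**Figure D3:**
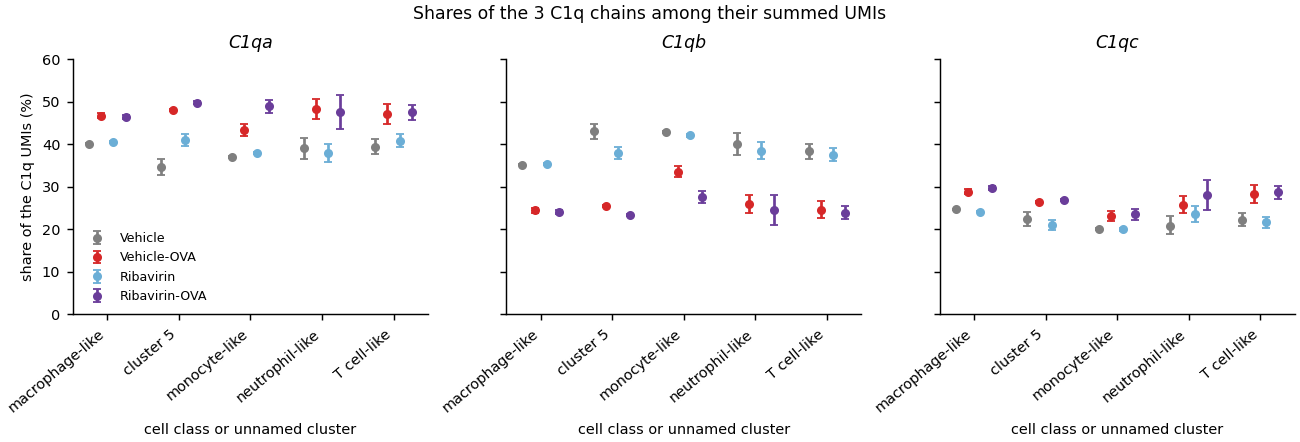
Share of C1qa, C1qb and C1qc (panels) among the summed UMIs of the 3 chains (%, vertical axis) in 5 groups of cells (horizontal axis). Points are libraries and bars 95% binomial intervals, counting error only. In each group of cells the OVA libraries lie below the others for C1qb and above them for C1qa.

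Among the named classes C4b was highest in macrophage-like cells, and higher in them with OVA. They held 90.5% of its UMIs in Vehicle and 71.0% in Ribavirin, but 44.5% in Vehicle-OVA and 43.2% in Ribavirin-OVA. Cluster 5, low in level, held 30.0% and 16.4% in the OVA libraries. The level of C4b in macrophage-like cells was 149 CPM in Vehicle (144 to 154) and 384 CPM in Vehicle-OVA (358 to 411). It was 120 CPM in Ribavirin (115 to 126) and 333 CPM in Ribavirin-OVA (311 to 356). Both OVA libraries stood above both others, by 2.58-fold (2.38 to 2.79) and 2.76-fold (2.55 to 3.00). The difference held inside cluster 6, where it was 2.24-fold and 1.86-fold, and inside cluster 30, where it was 2.47-fold and 1.91-fold. Cluster 30 had more C4b than cluster 6 in each library, by 2.06-fold to 3.33-fold, and the 40 Vehicle cells of cluster 41 (Lyve1, Cd163) had 1011 CPM (882 to 1153). Cluster 5 had little, with 0 UMIs in Vehicle, which allows a level of up to 5.50 CPM, 26.7 CPM in Vehicle-OVA, 4.08 CPM in Ribavirin and 20.8 in Ribavirin-OVA. For that reason the direction turned when cluster 5 was counted as macrophage-like, with ratios of 0.414 and 0.568.

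C4b was also read outside the leukocytes. Cluster 28, led by secretoglobin and lipocalin genes of nasal glands, held 18.3% of the C4b UMIs of Ribavirin and 27.9% of those of Ribavirin-OVA. Cluster 38, with Fabp7, a fatty acid-binding protein of glial cells, among its leading genes, had 70.8 to 604 CPM in 6 to 28 cells per library. Its level was above that of macrophage-like cells in all libraries but Vehicle, with overlapping intervals in Vehicle-OVA. In monocyte-like cells, neutrophil-like cells and T cell-like cells C4b stayed at or below 10.8 CPM. Over all cells C4b was 0.844-fold with OVA in the vehicle pair and 1.17-fold in the ribavirin pair.

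C3 was spread over myeloid cells and had no single source. Monocyte-like cells had 347 CPM in Vehicle, 373 CPM in Vehicle-OVA, 350 CPM in Ribavirin and 420 in Ribavirin-OVA, and held 52.4%, 7.58%, 47.0% and 9.48% of the C3 UMIs. Cluster 2 (Hspa1b, Nos2, Hmox1), nearly all from the OVA libraries, had 347 CPM, 446 CPM, 360 CPM and 622 CPM in the same order. It led the order in all libraries, overlapping with the next class in Vehicle, Ribavirin and Ribavirin-OVA. Macrophage-like cells had 257, 205, 198 and 288 CPM, and the ratios with OVA went apart, 0.798-fold (0.723 to 0.880) and 1.46-fold (1.34 to 1.58). With cluster 5 added they no longer did, at 1.27-fold (1.23 to 1.32) and 1.63-fold (1.56 to 1.70). Neutrophil-like cells had 178, 215, 178 and 397 CPM. Cluster 0 (Siglecf, Gpc3, Ltc4s), which had neutrophil markers detected and an eosinophil marker leading it, had 49.4 and 47.8 CPM without OVA and 215 and 164 CPM with OVA.

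The largest C3 differences inside a macrophage-like cluster were in cluster 30, at 24.6 CPM in Vehicle (16.6 to 35.1) and 27.1 CPM in Ribavirin (15.8 to 43.5), against 123 CPM in Vehicle-OVA (92.2 to 160) and 255 CPM in Ribavirin-OVA (209 to 309). These are 4.99-fold (3.14 to 8.08) and 9.40-fold (5.60 to 16.7), from 17 to 105 UMIs in 33 to 165 cells. Cluster 6 had 0.838-fold and 1.52-fold. Epithelial-like cells, few in a CD45+ preparation, had 12.8, 365, 177 and 561 CPM of C3, and held 27.9% of the C3 UMIs in Ribavirin-OVA and 0.0294% in Vehicle. Over all cells C3 was 1.76-fold (1.73 to 1.80) and 1.80-fold (1.76 to 1.84) with OVA, and the part of the class sizes in this was not tested. In T cell-like cells C3 was 4.67 CPM in Vehicle and 6.00 CPM in Ribavirin, against 19.4 CPM in Vehicle-OVA and 12.8 CPM in Ribavirin-OVA. The part of such a background in the C3 values of other cells was not tested.

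**Figure D4:**
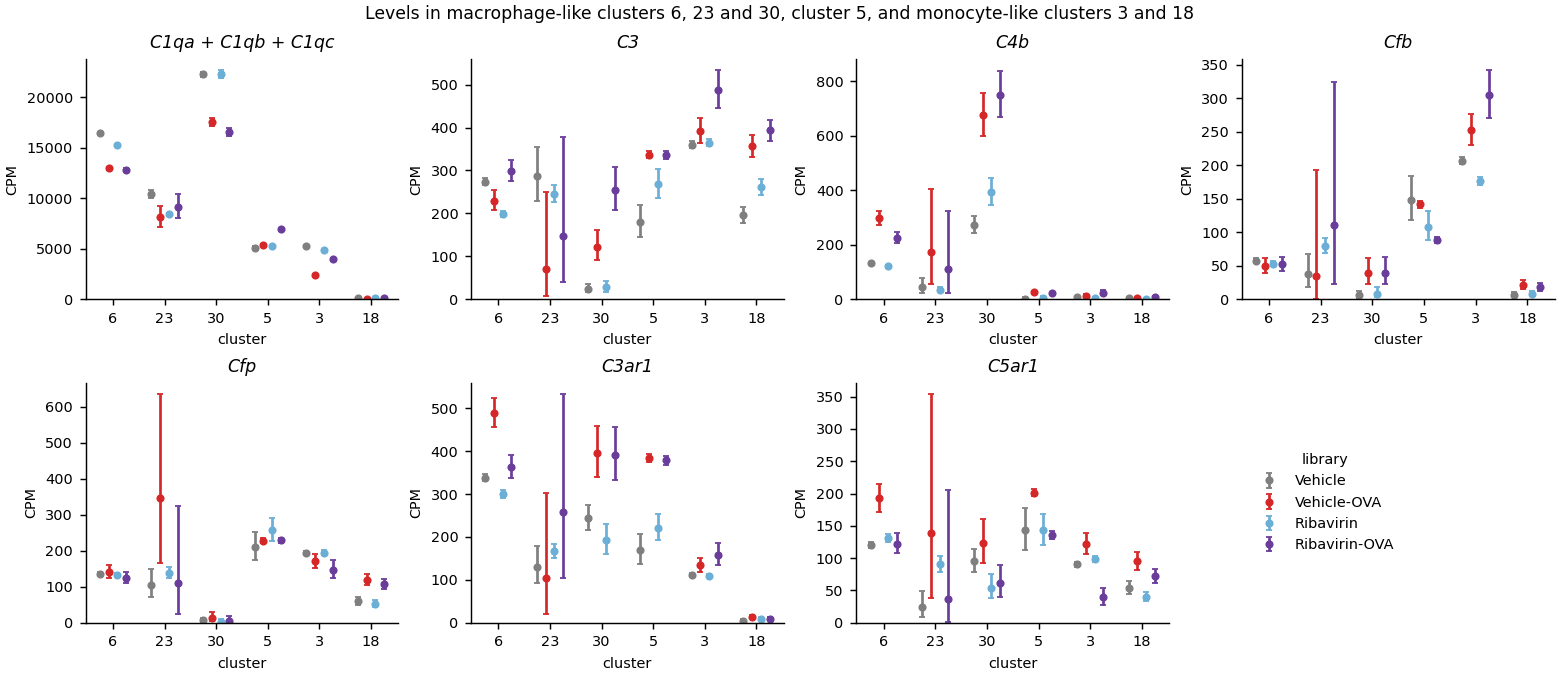
Levels (CPM, vertical axis, from 0) of the summed C1q chains and 6 other members (panels) in macrophage-like clusters 6, 23 and 30, unnamed cluster 5 and monocyte-like clusters 3 and 18 (horizontal axis). Points are libraries and bars exact Poisson 95% intervals. Cluster 30 is high in C4b and, without OVA, low in C3, while cluster 3 is high in Cfb and cluster 18 low in C1q and C3ar1.

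Cfb, the alternative pathway protease, belonged to monocyte-like cells and cluster 5. Monocyte-like cells had 190 CPM in Vehicle (185 to 196), 130 CPM in Vehicle-OVA (119 to 142), 152 CPM in Ribavirin (147 to 158) and 98.5 CPM in Ribavirin-OVA (88.3 to 110). Cluster 5 had 148, 142, 108 and 88.5 CPM, and its interval overlapped with that of monocyte-like cells in both OVA libraries. Macrophage-like cells had 53.7, 49.3, 54.9 and 49.6 CPM, with OVA ratios of 0.919 (0.745 to 1.12) and 0.903 (0.743 to 1.09). With cluster 5 added these became 2.37 (2.22 to 2.54) and 1.44 (1.33 to 1.56). Within the monocyte-like class Cfb was a gene of cluster 3. Cluster 18 had 0.0297-fold to 0.0846-fold of cluster 3's level. The class as a whole had 0.682-fold and 0.646-fold with OVA, whereas cluster 3 alone had 1.22-fold (1.11 to 1.34) and 1.73-fold (1.53 to 1.95). Cluster 3 gave 2601 and 1799 of the 2970 and 2224 monocyte-like cells without OVA, and 198 and 103 of 419 and 362 with OVA.

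Cfp, which encodes properdin, was read in dendritic and several myeloid classes. Dendritic cell-like cells (conventional, cDC-like) had 258 CPM in Vehicle, 357 CPM in Vehicle-OVA, 256 CPM in Ribavirin and 429 in Ribavirin-OVA, the highest of the named classes in each library. Cluster 5 had 211 to 257 CPM, overlapping with cDC-like cells in Vehicle and Ribavirin. Cluster 0 had 156 to 190 CPM, monocyte-like cells 118 to 183 CPM, neutrophil-like cells 116 to 155 CPM and macrophage-like cells 109 to 129 CPM. Macrophage-like cells had 0.908-fold (0.794 to 1.03) and 0.848-fold (0.745 to 0.962) with OVA, and with cluster 5 added 1.67-fold (1.59 to 1.75) and 1.56-fold (1.49 to 1.65). Cluster 30 was the exception among them, with 3.19 to 13.6 CPM against 124 to 141 CPM in cluster 6. In cluster 18 Cfp was 60.5 and 53.1 CPM without OVA and 119 and 107 CPM with OVA.

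The anaphylatoxin receptors were highest in different classes. C3ar1 stood in macrophage-like cells at 329 CPM in Vehicle (322 to 337), 464 CPM in Vehicle-OVA (436 to 494), 277 CPM in Ribavirin (269 to 285) and 366 CPM in Ribavirin-OVA (343 to 391). Both OVA libraries were above both others, by 1.41-fold (1.32 to 1.51) and 1.32-fold (1.23 to 1.42) or 0.50 and 0.40 on the log2 scale, against the median shift of 0.29 and 0.26. Cluster 5 had 169, 384, 221 and 378 CPM and did not differ from macrophage-like cells beyond counting error in Ribavirin-OVA. The 15 to 48 mast cell-like cells per library had 82.7 to 181 CPM with wide intervals. Monocyte-like cells had 104, 69.6, 95.4 and 50.9 CPM. As for Cfb, the class ratio was below 1, at 0.673 and 0.533, while cluster 3 alone had 1.19-fold (1.04 to 1.36) and 1.44-fold (1.22 to 1.70). Neutrophil-like cells had 3.04 to 4.19 CPM of C3ar1, near the 1.66 to 6.97 CPM of T cell-like cells.

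C5ar1 was highest in neutrophil-like cells, with 648 CPM in Vehicle (632 to 665), 527 CPM in Vehicle-OVA (517 to 536), 573 CPM in Ribavirin (560 to 586) and 486 CPM in Ribavirin-OVA (468 to 504). The OVA libraries were lower, by 0.813-fold (0.788 to 0.839) and 0.847-fold (0.812 to 0.885). The median over all genes of the class shifted by -0.31 and 0.49 on the log2 scale in the same pairs. The neutrophil-like class was made of other clusters in each library, since clusters 11 and 17 gave 1994 and 1340 of 5918 cells in Vehicle-OVA and cluster 19 gave 904 of 4256 cells in Ribavirin. Among groups of at least 50 cells the next levels were those of cluster 33 in Ribavirin alone (383 CPM), cluster 2 (212 to 379 CPM), cluster 0 (152 to 211 CPM), cluster 5 (135 to 202 CPM) and macrophage-like cells (115 to 177 CPM). In macrophage-like cells C5ar1 was 1.49-fold (1.33 to 1.66) with OVA in the vehicle pair and 0.935-fold (0.824 to 1.06) in the ribavirin pair, or 1.67-fold and 1.07-fold with cluster 5 added. Over all cells C5ar1 was 2.52-fold (2.46 to 2.57) in the vehicle pair and 0.826-fold (0.802 to 0.852) in the ribavirin pair. Neutrophil-like cells were 16.6% of cells in Vehicle and 36.5% in Vehicle-OVA, and 22.9% in Ribavirin and 17.9% in Ribavirin-OVA.

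At the level of single cells, 39.3% to 46.3% of macrophage-like cells had UMIs of both receptors, and 3.77% to 7.32% had C5ar1 without C3ar1. Of neutrophil-like cells, 68.0% to 74.1% had C5ar1 without C3ar1 and 0.581% to 1.01% had both. These shares are not thinned, and the median depth was 9269 to 9523 UMIs in macrophage-like cells and 2041.5 to 3257 UMIs in neutrophil-like cells. After thinning to 1000 UMIs, C5ar1 was found in 36.6% to 46.5% of neutrophil-like cells and 0.113% to 1.63% of T cell-like cells, and C3ar1 in 21.9% to 30.9% of macrophage-like cells and 0.121% to 0.409% of T cell-like cells.

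Counted gene by gene, members past 2-fold with OVA were about as frequent as such genes in general in macrophage-like cells as named, without cluster 5. In macrophage-like cells 1 of 9 members was at least 2-fold higher and none lower in each pair, where 11.0% of all genes passed 2-fold in either direction in Vehicle-OVA over Vehicle and 9.88% in Ribavirin-OVA over Ribavirin. The member was C4b both times. With cluster 5 added the higher member was Cfb in the vehicle pair, and C4b and all C1q chains were at least 2-fold lower. In the ribavirin pair no member was higher and C1qb was lower. Of all genes of that enlarged class 15.6% passed 2-fold in either direction in the vehicle pair and 11.3% in the ribavirin pair. In monocyte-like cells 0 were higher and 3 lower in each pair, the C1q chains, where 15.2% and 15.3% of all genes passed. C1qb was 0.184-fold and 0.181-fold there, C1qa 0.276-fold and 0.356-fold, and C1qc 0.270-fold and 0.326-fold, while the summed level in cluster 3 alone was 0.451-fold (0.438 to 0.465) and 0.809-fold (0.783 to 0.835). In neutrophil-like cells 0 were higher and 1 lower in the vehicle pair, where 17.8% of all genes passed, and 1 higher and 1 lower in the ribavirin pair, where 20.2% passed. The lower member was C1qb, at its background level, and the higher one C3, at 2.23-fold (2.11 to 2.36), in a class whose median gene shifted by 0.49 on the log2 scale. The median log2 ratio of the members was -0.05 and 0.08 in macrophage-like cells, against 0.29 and 0.26 over all genes.

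**Figure D5:**
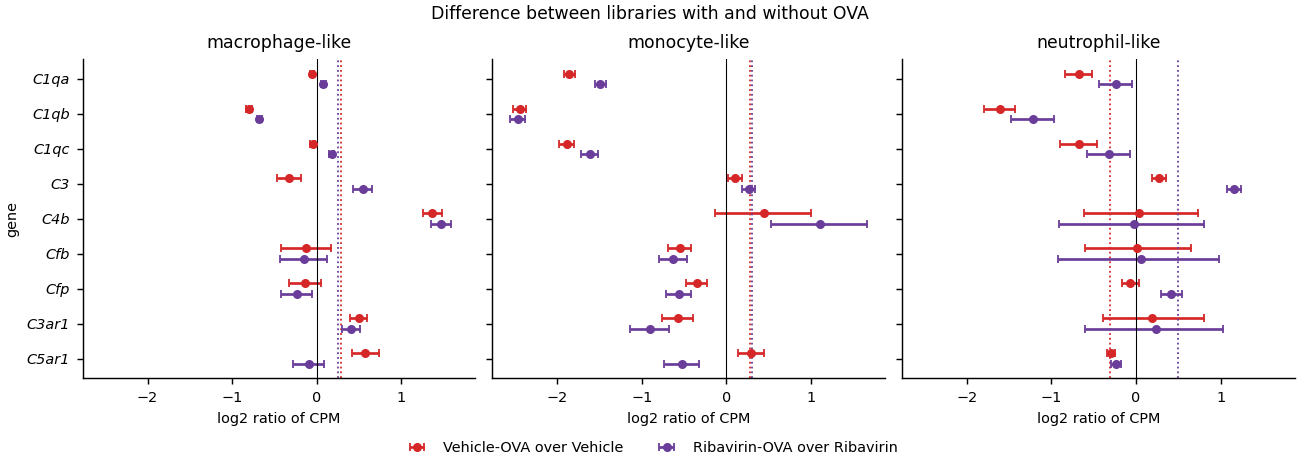
Log2 ratio of CPM with OVA over without OVA (horizontal axis) of each member in 3 classes (panels) for the vehicle and ribavirin pairs (colours). Bars are 95% intervals, counting error only. C4b stands right of 1 in macrophage-like cells and the 3 C1q chains left of -1 in monocyte-like cells in both pairs.

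Ribavirin without OVA went with smaller differences. In Ribavirin over Vehicle no member passed 2-fold in macrophage-like cells, where 0.768% of all genes did, in monocyte-like cells (0.616%) or in neutrophil-like cells (1.43%). The C1q chains of macrophage-like cells were 0.851-fold to 0.876-fold, C3 0.770-fold, C4b 0.809-fold and C3ar1 0.842-fold, and the intervals of Cfb, Cfp and C5ar1 included 1. In Ribavirin-OVA over Vehicle-OVA no member passed 2-fold in these classes either, with 5.32% of all genes past it in macrophage-like cells, 4.38% in monocyte-like cells and 29.0% in neutrophil-like cells. There C3 was 1.40-fold (1.24 to 1.58), or 1.01-fold (0.977 to 1.05) with cluster 5 added, and C5ar1 0.648-fold (0.554 to 0.758) in macrophage-like cells, and C3 was 1.85-fold (1.76 to 1.94) in neutrophil-like cells, where the median of all genes shifted by 0.71 on the log2 scale. C5ar1 was also lower in cluster 5, at 0.671-fold (0.637 to 0.708), and in monocyte-like cells, at 0.584-fold (0.494 to 0.690). The summed neutrophil markers went from 1808 to 672 CPM in cluster 5 in this pair, and from 2258 to 1000 CPM in monocyte-like cells. Cluster 3 made up 47.3% of the monocyte-like cells of Vehicle-OVA and 28.5% of those of Ribavirin-OVA. The part of these markers and of this mix in the C5ar1 values was not tested. Over all cells C5ar1 was 0.345-fold (0.335 to 0.355) in this pair, in which the share of neutrophil-like cells went from 36.5% to 17.9%, and the part of that share was not tested.

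Of 37 other complement genes found, 15 had 50 or more UMIs in macrophage-like cells, 12 in monocyte-like cells and 13 in neutrophil-like cells. Of the 15 in macrophage-like cells 2 were at least 2-fold higher and none lower in the vehicle pair, and 6 higher and none lower in the ribavirin pair, beside the 11.0% and 9.88% of all genes past 2-fold in either direction. C5ar2, another receptor of C5a, was higher in both, from 26.7 to 66.2 CPM and from 20.3 to 57.2 CPM, but was 1.37-fold and 1.78-fold with cluster 5 added. Clu, which encodes the complement inhibitor clusterin, also passed 2-fold in both, but it did so in T cell-like cells as well, and epithelial-like cells held 75.4% of its UMIs. In monocyte-like cells 5 of 12 were higher and none lower in each pair, beside 15.2% and 15.3% of all genes. Those higher in both included Cd93, a C1q-binding surface protein (39.0 to 151 CPM and 49.9 to 134 CPM), and C5ar2 (6.84 to 20.6 CPM and 5.64 to 16.3 CPM). Fcnb, a ficolin of the lectin pathway (0.583 to 5.91 CPM and 1.34 to 8.43 CPM), and Clu were also among them. Cluster 3 made up 87.6% and 80.9% of this class without OVA but 47.3% and 28.5% with OVA. The part of that mix in these values was not tested. In neutrophil-like cells, where 17.8% and 20.2% of all genes passed, 3 of 13 were higher and 2 lower, and 3 higher and none lower. Fcnb (3.02 to 7.69 CPM and 15.9 to 49.0 CPM) and Clu were higher in both, in a class made of other clusters in each library. In cluster 0, which had neutrophil markers detected, Fcnb had 54 UMIs in Vehicle and 35 in Ribavirin but 0 in both OVA libraries. C6, a terminal component, was 1.34-fold (0.952 to 1.85) and 6.16-fold (4.86 to 7.81) with OVA in macrophage-like cells, and 0.596-fold (0.497 to 0.715) and 2.23-fold (1.83 to 2.71) with cluster 5 added.

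The genes whose pattern was most like each member's, by Pearson correlation over 64 sums of class and library among 12590 genes, are given as a description, since the sums share libraries. For C1qa they included Ms4a7 (0.97) and Trem2 (0.96), and C1qb and C1qc had Ms4a7, Trem2 and Apoe. C3ar1 was nearest to Ms4a7 (0.95), Trem2 (0.95) and Msr1 (0.93). C3 was nearest to Tgm2 (0.90), Dram1 (0.88) and Cd14 (0.87), Cfb to Msr1, Myof and Scarf1 (0.86 to 0.87), and Cfp to Pirb (0.92), Spi1 (0.91) and Card9 (0.89). C5ar1 was nearest to Slc11a1 (0.94), Cd300ld (0.94) and Cebpb (0.93), while C4b had the loosest match, with Ecscr (0.79), Slc1a3 (0.78) and Ppp1r9a (0.77). Among the members themselves, C1qa correlated at 0.98 with C1qb, 0.99 with C1qc and 0.95 with C3ar1, and at 0.49 with C5ar1.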

How the data were processed

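CD45+ cells of nasal mucosa from 4 treatments were profiled on the 10x Chromium platform, 1 library each. The authors deposited raw UMI counts per gene and cell barcode from Cell Ranger 5.0.0, and mm10 is named in the submitters' processing notes. Gene positions and promoters were taken from reference tables for GRCm38, which may differ from the authors' annotation.

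Cells were kept from 200 genes and 500 UMIs up, below a mitochondrial share of 10%. Doublets were scored against simulated ones in each library, and the top-scoring cells at 0.4% per 1000 barcodes were removed (4.12% to 11.1%). All libraries entered 1 Leiden clustering (leidenalg 0.10.2, resolution 1, 2000 variable genes, the listed complement genes left out, 30 components, 15 neighbours) with no batch correction. A cluster took the class with the best marker score among classes with at least 3 detected markers (2-fold over the mean of the other clusters, in at least 10% of cells). It stayed unnamed with under 3 detected markers, or where markers of another class were more frequent among its top 10 genes. A cluster with few UMIs and no marker of its class among those genes also stayed unnamed. This naming rule was set after clusters had been seen, with both monocyte lists merged. Of the 66110 cells kept, 16001 in 9 clusters were unnamed. Names can differ from those of the study.

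UMIs were summed per class and library as CPM with exact Poisson intervals, shares have exact Clopper-Pearson intervals, and ratios exact conditional binomial intervals (scipy 1.17.1), at 95%. Zero counts allow up to 3 counts. Past 2-fold was judged with 1 CPM added, for genes with 50 or more UMIs in a class, the libraries together. On simulated counts for macrophage-like cells in Vehicle-OVA over Vehicle (11068 genes, 200 changed), 96.5% of the intervals held the true fold. This concerns counting error alone, and says nothing of how far mice or libraries of a treatment differ. For likeness, sums of at least 50 cells and genes with at least 500 UMIs were used, and the 3 nearest genes outside the complement lists are named. Other complement genes are named where they passed 2-fold in the same direction in both OVA pairs. C6, cluster 30's C3 and the cluster 38 and 41 levels were singled out after their values were seen. The members and lists were chosen with earlier results of these data known. C4a, and Itgam, whose symbol 2 identifiers share, were not analysed here. Some genes that these rules name are not reported here.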

Additional observations from a re-analysis of the deposited data

Results flagged for a closer look

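The OVA difference went opposite ways in the vehicle and ribavirin pairs for 6 results. With 1 library per treatment the difference between the pairs was not tested. Over all cells C5ar1 was 2.52-fold with OVA in the vehicle pair and 0.826-fold in the ribavirin pair, and C4b was 0.844-fold and 1.17-fold. In macrophage-like cells C3 was 0.798-fold and 1.46-fold, C1qa 0.963-fold and 1.06-fold, and C1qc 0.967-fold and 1.13-fold. With cluster 5 added to the class the pairs went the same way, C3 at 1.27-fold and 1.63-fold, C1qa at 0.449-fold and 0.676-fold, and C1qc at 0.412-fold and 0.640-fold. In monocyte-like cells C5ar1 was 1.23-fold and 0.696-fold. The neutrophil markers there summed to 509 CPM in Vehicle, 2258 in Vehicle-OVA, 801 in Ribavirin and 1000 in Ribavirin-OVA. Cluster 3 made up 87.6%, 47.3%, 80.9% and 28.5% of that class in the same order. The part of either in this result was not tested.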

How the results depend on the processing

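No paired analysis was possible because each treatment had 1 library, and for the same reason no replicate could be left out. Without the 1 CPM added, 12 member ratios were past 2-fold, among them C4b in monocyte-like cells of the ribavirin pair (log2 ratio 1.11). For these 12 ratios 150 values under the alternatives were computed, of which 116 kept the direction and stayed past 2-fold and 8 reversed. Over all 108 member ratios, 770 of 1404 such values lay within the counting interval of the main value. The log2 ratio of the summed C1q chains in macrophage-like cells was -0.27 in the vehicle pair and -0.12 in the ribavirin pair. In the vehicle pair it moved to -0.25 with a mitochondrial limit of 5%, -0.39 with 20%, -0.19 with 2000 UMIs per cell, -0.17 with doublets kept, -1.01 at resolution 2.0, -1.47 for libraries clustered alone, -0.25 with complement genes allowed in clustering, -0.88 with classes from single-cell markers, -0.30 as a mean over cells and -0.56 relative to the median gene. In the ribavirin pair it moved to -0.21 with the 20% limit, 0.25 with 2000 UMIs per cell, -0.084 with doublets kept, -0.19 at resolution 0.5, -0.44 at resolution 2.0, -0.58 for libraries clustered alone, -0.039 with complement genes allowed, -0.47 with single-cell markers, -0.085 as a mean over cells and -0.37 relative to the median gene. Alternatives chosen after seeing the data gave -1.41 and -0.84 with cluster 5 added, -0.34 and -0.25 in cluster 6 alone, and -0.89 and -0.39 with macrophage-like, monocyte-like and cluster 5 cells together. Members at least 2-fold higher went from 1 to 0 in both pairs at resolution 2.0, with single-cell markers and in the 3 groups together, to 0 in the ribavirin pair with cluster 5 added or in cluster 6 alone, and to 2 there (C3 and Cfb) with libraries clustered alone. In the vehicle pair the 1 higher member was Cfb in place of C4b with cluster 5 added and with libraries clustered alone. Members at least 2-fold lower went from 0 to 1 in both pairs at resolution 2.0, with single-cell markers and in the 3 groups together. They went to 1 in the vehicle pair relative to the median gene, and with libraries clustered alone or cluster 5 added to 4 in the vehicle pair and 1 in the ribavirin pair. Of all genes 15.6% and 11.3% passed 2-fold in either direction with cluster 5 added, and 11.0% and 8.78% in the 3 groups together. The C4b ratio of macrophage-like cells reversed to -1.02 and -0.26 with libraries clustered alone, to -1.27 and -0.82 with cluster 5 added, to -0.39 and -0.020 in the 3 groups together, and to -0.30 in the vehicle pair with single-cell markers. C4b in monocyte-like cells of the ribavirin pair reversed to -0.81 with doublets kept. Adding cluster 5, which is lower in C4b and C1q than macrophage-like cells, lowers both by construction. For the other settings the cause was not tested. Few cells lay behind some values, such as the 57 and 86 of cluster 5 without OVA and the 6 to 28 per library of cluster 38.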

Other observations

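Some complement genes outside the 9 were read mostly in a single class or cluster. Plasma cell-like cells held 77.9% of the 290 UMIs of C4bp, the soluble inhibitor that binds C4b, with 154 UMIs in Vehicle and 70 in Ribavirin but 1 in each OVA library, or 0.0507-fold (0.00127 to 0.287) and 0.0190-fold (0.000473 to 0.109). Different clusters made up this class, since cluster 14 gave 1094 and 529 of its cells without OVA and 9 and 8 with OVA. B cell-like cells held 79.6% of the 756 UMIs of Cr2, the receptor for C3 fragments on B cells, at 68.5 CPM in Vehicle, 410 in Vehicle-OVA, 63.5 in Ribavirin and 65.4 in Ribavirin-OVA. Plasmacytoid dendritic cell-like cells held 90.3% of the 31 UMIs of C8a, a terminal component, and olfactory neuron-like cells 94.6% of the 147 UMIs of Mbl2, a mannose-binding lectin. Cluster 5 held 58.8% of the 524 UMIs of Fcna, a ficolin. C7 and Mbl1 had 0 UMIs in the cells kept.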
